A study of Homo sapiens with 9 samples.

Results

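The genes described here are 10 parts of the circadian clock, namely BHLHE40, BHLHE41, PER1, PER2, PER3, CRY1, CRY2, NR1D1, DBP and CIART. They were taken by symbol from a table of counts for 60591 gene symbols, and all 10 were found and passed the expression filter that left 15944 genes to be tested. The table holds 9 mRNA libraries of undifferentiated Caco-2 cells (uCaco-2), a human colon adenocarcinoma line that proliferates before confluence, as 3 biological replicates of each of 3 conditions. Control cells received fresh medium, the CoCl2 cells received medium with 300 μM CoCl2, and the OD cells received medium with 5 μM of an oxyquinoline derivative (OD). All 3 conditions had 0.5% DMSO and were lysed after 24 h, so every library carries the solvent and a change of medium, and a rhythm over time was not measured. Both agents were used as chemical inducers of the hypoxia-inducible factor (HIF).

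The circadian clock is a feedback loop of transcription. The activators CLOCK and BMAL1 (listed here under its older symbol ARNTL) bind short E-box sequences and switch on the genes of the period (PER) and cryptochrome (CRY) proteins, which then hold back their own activators. BHLHE40 and BHLHE41 (also called DEC1 and DEC2) bind E-boxes as repressors, and BHLHE40 is a long-known HIF target. NR1D1 encodes the nuclear receptor REV-ERBα, which represses BMAL1, CIART encodes a further repressor of the CLOCK and BMAL1 pair, and DBP is an activator that binds D-box sequences in clock output genes.

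Total counts were 15998136 to 18298190 in control libraries, 16286502 to 24209427 with CoCl2 and 16387054 to 19623776 with OD. Levels are given in CPM, which are counts relative to the library total after correction by the TMM composition factors of edgeR. These factors were 1.11 to 1.12 in control, 0.770 to 0.795 with CoCl2 and 1.14 to 1.15 with OD. Without these factors the median log2 fold change of all tested genes with CoCl2 was -0.55 in place of -0.049. Of the 10 intestinal epithelial markers, 8 had at least 10 counts in every control and CoCl2 library and 9 in every OD library. Their summed level was 11201 to 11719 CPM in control, 13549 to 14505 with CoCl2 and 10604 to 11168 with OD. Of the 9 tested, 8 were higher and 1, VIL1, lower with CoCl2 by the adjusted p (40.4% and 42.8% of all tested genes). Without overlap of libraries, 6 were higher and 1 lower (40.5% and 42.9%). LGALS4 (log2 fold change 1.66) and VIL1 (-2.45) were called. LGALS4 had 5 to 9 control counts and 6, 33 and 12 with CoCl2, so its groups overlapped and its value rests mainly on CoCl2 replicate 2. It too was tested only because of its level in treated cells. Of the 4 leukocyte markers, PTPRC and CD3E stayed under 10 counts in every library, as did the fibroblast genes COL1A2 and DCN, while LYZ, COL1A1 and COL3A1 were detected, with log2 differences from control for CoCl2 of 0.53, -0.49 and 0.69. The 3 endothelial markers summed to 2.25 to 3.41 CPM, of which PECAM1 had -0.80 for CoCl2. VWF, at 6 to 8 control counts, was called higher (1.61), but it was tested only because of its level in treated cells. Its value is therefore a description. The part of these markers in the results below was not tested. Of 5 HIF target genes listed, CA9 did not pass the expression filter. By the rule given below, the 4 tested were called higher with CoCl2 and 3 with OD, against 19.9% and 9.09% of all tested genes. EGLN3, at a log2 fold change of 0.35 with OD, was higher by the adjusted p alone. The log2 fold changes of PDK1 were 2.39 with CoCl2 and 3.26 with OD, and those of NDRG1 were 3.69 and 3.22.

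A gene was called changed at a Benjamini-Hochberg adjusted p under 0.05 in edgeR's quasi-likelihood test together with a log2 fold change above 1 in size. With CoCl2, 7 of the 10 genes were called higher than in control cells, against 19.9% of all tested genes, and 0 were called lower (43.2% of all tested genes were called in either direction). They were BHLHE40, BHLHE41, PER1, CRY1, CRY2, CIART and NR1D1. BHLHE41 passed the expression filter only through the treated libraries. With at least 10 counts required in every library, 6 genes were called higher with CoCl2 and 3 with OD, against 16.9% and 6.38% of the 12583 genes then tested. With OD, 4 of the 10 were called higher, against 9.09% of all tested genes, namely BHLHE40, BHLHE41, CIART and NR1D1, and again 0 were called lower (13.3% in either direction). With the adjusted p alone, 8 were higher and 0 lower with CoCl2, where 40.4% of all tested genes were higher and 83.2% passed in either direction. With OD, 8 were higher and 1 lower, where 32.3% of all tested genes were higher, 33.3% lower and 65.6% passed in all. The libraries of 8 genes were all higher with CoCl2 than in control without overlap (40.5% of all tested genes, and 83.4% in either direction), and those of 8 were higher and of 1 lower with OD (33.7% and 34.3% of all tested genes, and 68% in all). The median log2 fold change of the 10 genes was 1.93 with CoCl2 and 0.62 with OD, beside -0.049 and -0.010 over all tested genes. BHLHE41 is among the higher genes in each of these counts and enters the medians. It was tested only because of its level in treated cells, so it adds no support there. Both comparisons share the control libraries. Of all genes called with CoCl2, 46% were higher, and 23.9% with library size as the sole scaling. Under that scaling 6 of the 10 genes were called higher, against 11.5% of all tested genes.

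The direct comparison of the treatments divided the 10 genes. PER1, CRY2, CIART and NR1D1 were called higher with CoCl2 than with OD, against 17.5% of all tested genes, and 0 were called lower (41.3% in either direction). With the adjusted p alone, CRY1, DBP and PER3 were also higher with CoCl2, and BHLHE40 and PER2 were lower, where 40.2% of all tested genes were higher and 43.2% lower, 83.5% in all. The libraries of 7 genes did not overlap and were higher with CoCl2, and those of 2 were lower, where 40.3% of all tested genes were higher, 43.5% lower and 83.8% in all did not overlap. With library size as the sole scaling, 2 of the 10 genes were called higher and 2 lower, against 8.47% and 37.8% of all tested genes. Of all genes called between the treatments, 42.4% were higher with CoCl2, and 18.3% under that scaling. BHLHE41 was the one gene of the 10 with an adjusted p above 0.05 between the treatments.

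**Figure D1:**
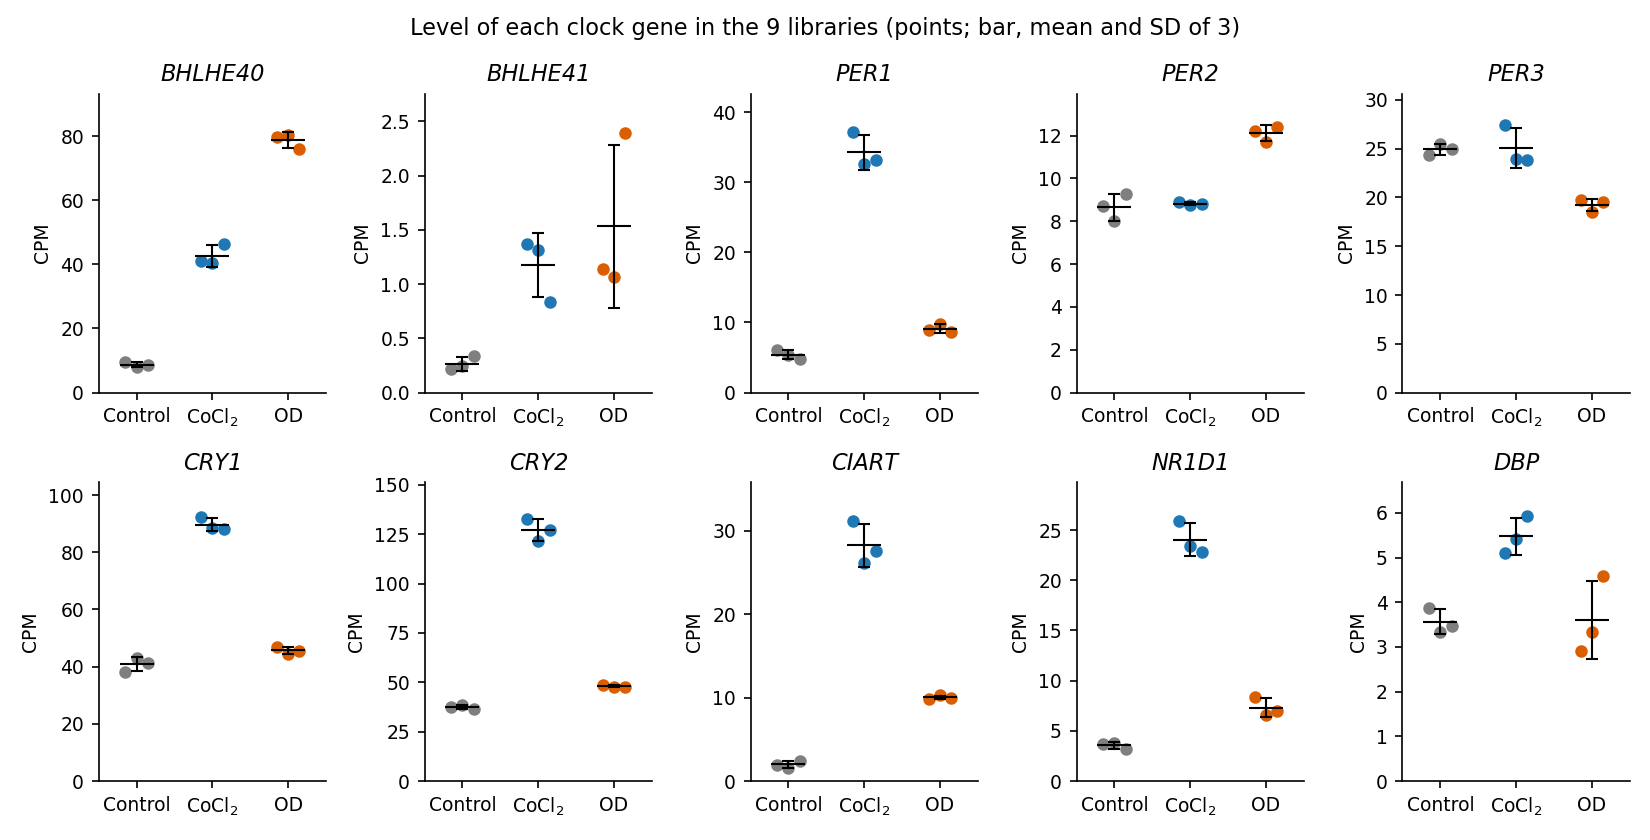
Level of each of the 10 clock genes in CPM (vertical axes, linear and starting at 0) in the 3 control, 3 CoCl2 and 3 OD libraries, with points for libraries and bars for the mean and SD of 3. BHLHE40 and PER2 were highest with OD, at 75.9 to 80.4 and 11.7 to 12.4 CPM, without any overlap with the other libraries. PER1, CRY1, CRY2, CIART, NR1D1 and DBP were highest with CoCl2, also without overlap.

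To show what sequence lies at these genes, the 250 bases before the annotated start are given 5′ to 3′ for the 4 genes with the full E-box CACGTG and for NR1D1 and PER2, which have the variant CACGTT in its place. With CoCl2, BHLHE40, PER1 and CIART with the full E-box were called, as were NR1D1, CRY1 and CRY2 without it. PER2, PER3 and DBP, also without it, were not called. With OD, BHLHE40 and CIART with the full E-box were called, as was NR1D1, while PER1 was not. Of all tested genes, 19.9% were called higher with CoCl2 and 9.09% with OD. BHLHE41, which also has the full E-box, was tested only because of its level in treated cells, so its calls add no support. Whether the motif bears on the calls was not tested. The sequences shown come from RefSeq on GRCh38.p14. The RefSeq starts of PER1 and PER2 lie inside the longer GENCODE spans given below for these genes. Capitals mark the E-box CACGTG, its variant CACGTT and the cores of the HIF binding sequence, ACGTG and GCGTG, on either strand. BHLHE40 is shown at chr3:4979187-4979436 on the plus strand, BHLHE41 at chr12:26125038-26125287 on the minus strand, PER1 at chr17:8152405-8152654 on the minus strand, CIART at chr1:150282304-150282553 on the plus strand, NR1D1 at chr17:40100590-40100839 on the minus strand and PER2 at chr2:238288611-238288860 on the minus strand.
BHLHE40: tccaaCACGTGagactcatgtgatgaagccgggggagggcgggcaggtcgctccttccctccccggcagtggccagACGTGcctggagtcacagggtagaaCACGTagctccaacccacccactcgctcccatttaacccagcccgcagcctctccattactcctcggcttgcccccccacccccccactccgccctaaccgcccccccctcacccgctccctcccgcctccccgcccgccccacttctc
BHLHE41: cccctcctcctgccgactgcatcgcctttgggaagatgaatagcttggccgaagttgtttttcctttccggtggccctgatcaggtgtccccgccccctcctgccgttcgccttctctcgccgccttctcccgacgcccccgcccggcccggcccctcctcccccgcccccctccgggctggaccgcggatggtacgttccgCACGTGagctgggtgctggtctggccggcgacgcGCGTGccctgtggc
PER1: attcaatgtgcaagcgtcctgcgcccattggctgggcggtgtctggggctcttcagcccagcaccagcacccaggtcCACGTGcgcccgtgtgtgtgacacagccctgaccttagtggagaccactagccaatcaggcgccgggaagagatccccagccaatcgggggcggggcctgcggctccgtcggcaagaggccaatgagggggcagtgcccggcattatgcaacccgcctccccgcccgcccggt
CIART: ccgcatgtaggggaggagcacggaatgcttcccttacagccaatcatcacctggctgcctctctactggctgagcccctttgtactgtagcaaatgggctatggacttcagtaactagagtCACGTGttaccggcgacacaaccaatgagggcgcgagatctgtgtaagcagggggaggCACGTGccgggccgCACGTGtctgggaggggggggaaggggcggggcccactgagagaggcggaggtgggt
NR1D1: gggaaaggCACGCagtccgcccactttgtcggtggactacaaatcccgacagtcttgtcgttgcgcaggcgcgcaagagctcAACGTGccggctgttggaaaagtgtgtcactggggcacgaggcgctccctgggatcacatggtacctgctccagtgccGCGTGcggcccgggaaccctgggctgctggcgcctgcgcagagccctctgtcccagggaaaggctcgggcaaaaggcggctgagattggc
PER2: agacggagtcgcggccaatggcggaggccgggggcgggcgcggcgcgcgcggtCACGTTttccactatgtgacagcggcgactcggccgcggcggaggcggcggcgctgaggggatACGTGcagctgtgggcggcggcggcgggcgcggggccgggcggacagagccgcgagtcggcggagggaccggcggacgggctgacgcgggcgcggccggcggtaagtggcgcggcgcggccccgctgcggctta

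The RefSeq table held 12 windows for the 10 genes (PER3 and CRY2 have a pair of annotated starts each), from 250 bases before to 50 after the start. CACGTG was found in 4 of these 12 windows, against 7.26% of 35116 windows of the same length over all genes. CIART had it 3 times, at 129, 71 and 57 bases before the start, and BHLHE40, BHLHE41 and PER1 once each, at 245, 48 and 173 bases before it. CACGTT was found in the windows of PER2, CRY1 and NR1D1 and in 1 of the 2 of CRY2, against 5.34% of all windows. At least 1 HIF core, ACGTG or GCGTG, was found in all 12 windows, and in 48.4% of all windows. CACGTG holds ACGTG on both strands, so each full E-box also counts as 2 HIF cores, and CACGTT holds it once. The D-box, TTACGTAA or TTATGTAA, was found at PER2 and at 1 start of PER3, against 1.01% of all windows. The receptor half-site AGGTCA was found at PER1 and CRY2, against 13.8% of all windows, and the cyclic AMP response element TGACGTCA was found in 0 of the 12 windows, against 1.85% of all windows. A match of letters is a description, since binding was not measured.

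**Figure D2:**
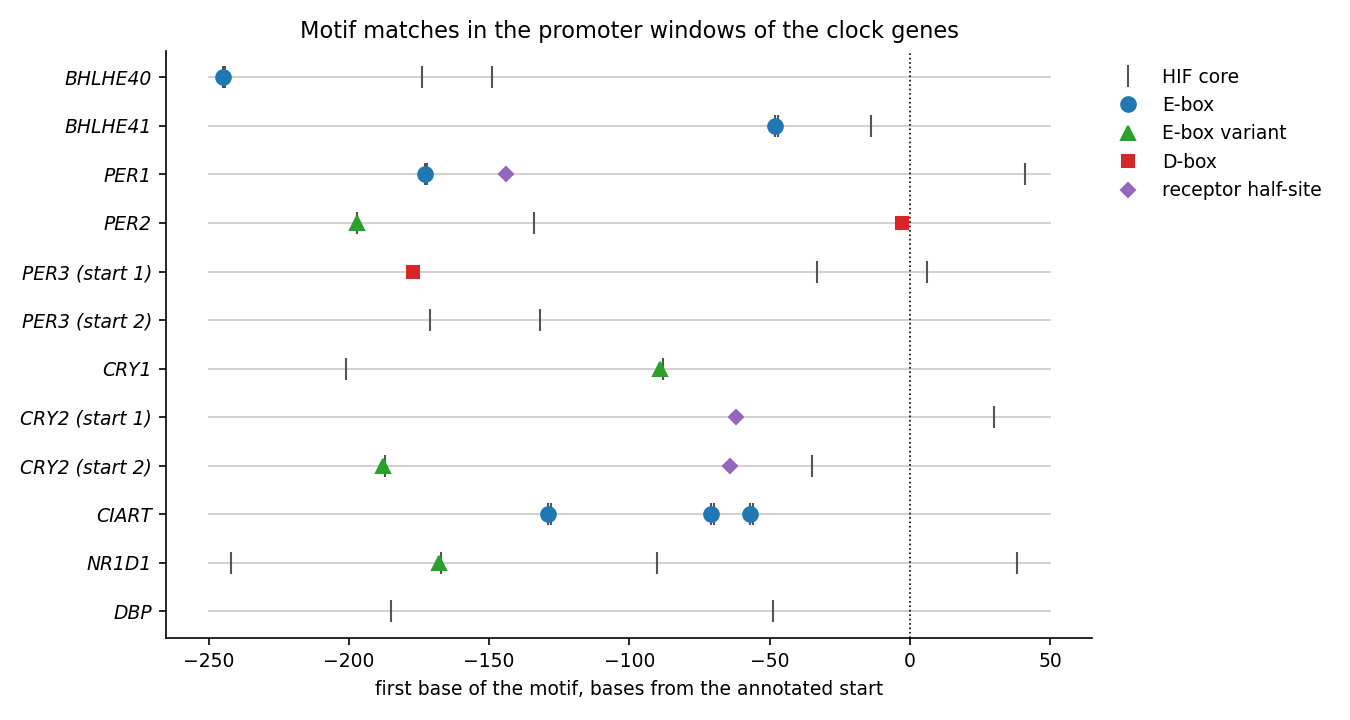
Position of each motif match (horizontal axis, bases from the annotated start to the first base of the motif) in the 12 promoter windows of the 10 clock genes, 1 line per window. Circles mark CACGTG, triangles CACGTT, bars the HIF cores, squares the D-box and diamonds the receptor half-site, and CIART shows 3 circles.

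BHLHE40 lies on the plus strand of chromosome 3, from 4979437 to 4985323 (GRCh38, as are all positions here). It had 177, 162 and 155 counts in the control libraries, 659, 522 and 886 with CoCl2, and 1757, 1812 and 1426 with OD. The mean CPM (± SD, n = 3) was 8.72 ± 0.791 for control, 42.6 ± 3.34 for CoCl2 and 78.7 ± 2.43 for OD. The 3 groups did not overlap, and every OD library was above every CoCl2 library. BHLHE40 rose 4.92-fold with CoCl2 (log2 fold change 2.30, standard error 0.078, adjusted p = 2.04e-36 by edgeR) and 9.05-fold with OD (log2 fold change 3.18, standard error 0.072, adjusted p = 4.03e-45). It was 1.84-fold lower with CoCl2 than with OD, a log2 difference of -0.88 with a 95% interval from -0.99 to -0.77 (adjusted p = 5.14e-22), which lies within the fold change threshold. That difference passed the threshold with upper-quartile factors, at -1.01, and under scaling by library size, at -1.43. BHLHE40-AS1, which shares 12.8% of the exonic bases of BHLHE40 on the opposite strand, had 0 to 4 counts in any library.

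BHLHE41, the paralog of BHLHE40, maps to chromosome 12 (minus strand), bases 26120030 to 26125037, and was near the limit of detection. It had 4, 5 and 6 counts in the control libraries, 22, 17 and 16 with CoCl2, and 25, 24 and 45 with OD. All treated libraries were above all control libraries, and OD replicate 3 stood above the other two OD libraries. The control counts were below the expression filter's minimum, so the gene was tested only because of its level in treated cells. Its fitted log2 differences from control, 2.09 for CoCl2 and 2.47 for OD (standard errors 0.42 and 0.38), are therefore given as a description, with no p. Between the treatments the log2 difference was -0.38, with an interval from -0.94 to 0.19 (adjusted p = 0.21), and without OD replicate 3 it was 0.053. SSPN, which shares 4.2% of its exonic bases on the opposite strand, had 0 to 5 counts.

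PER1, the period gene that responds fastest to many outside stimuli, maps to chromosome 17 (minus strand), bases 8140472 to 8156506. It had 113, 109 and 85 counts in the control libraries, 598, 422 and 632 with CoCl2, and 196, 221 and 163 with OD. The mean CPM (± SD, n = 3) was 5.40 ± 0.657, 34.3 ± 2.5 and 9.13 ± 0.599 for these conditions in turn, again in 3 separate ranges. PER1 rose 6.35-fold with CoCl2 (log2 fold change 2.67, standard error 0.093, adjusted p = 5.82e-36). With OD its log2 fold change was 0.76 (standard error 0.11, adjusted p = 1.76e-08), under the fold change threshold. PER1 was 3.75-fold higher with CoCl2 than with OD (log2 difference 1.91, interval 1.74 to 2.07, adjusted p = 6.31e-31).

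PER2 and PER3, the other period genes, were not called in any comparison. PER2, on chromosome 2 (minus strand), bases 238244044 to 238290102, had 7.99 to 9.26 CPM in control cells, 8.74 to 8.90 with CoCl2 and 11.7 to 12.4 with OD. The CoCl2 libraries lay inside the control range and the OD libraries above it. The log2 fold change of PER2 was 0.031 with CoCl2, with an interval from -0.18 to 0.24 (adjusted p = 0.788), and 0.49 with OD (adjusted p = 7.35e-06). PER3, on the plus strand of chromosome 1 from 7784291 to 7845177, had 24.4 to 25.5 CPM in control cells, 23.8 to 27.4 with CoCl2 and 18.6 to 19.7 with OD. Its log2 fold change was 0.0073 with CoCl2, with an interval from -0.14 to 0.15 (adjusted p = 0.927), and -0.37 with OD (adjusted p = 5.8e-06), where all 3 libraries were below the control range. PER3 was the only one of the 10 genes with an adjusted p under 0.05 and a lower level against control in either comparison. The signs of PER2 and PER3 with CoCl2 depended on the scaling. With library size alone they were -0.47 and -0.499, which is 0.079 and 0.055 above the median of all genes under that scaling. UTS2 shares 10.7% of the exonic bases of PER3 on the opposite strand and had 9 to 28 counts, against 310 to 520 for PER3.

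The balance among the period genes was read from the share of PER1. In counts divided by exonic length, PER1 made up 17.0%, 15.2% and 13.5% of the sum of PER1, PER2 and PER3 in the control libraries, 53.4%, 52.7% and 53.2% with CoCl2, and 23.5%, 26.3% and 23.0% with OD. This share is taken within a library and needs no scaling between libraries. The mean difference from control was 37.9 percentage points with CoCl2 and 9.01 with OD. Each had p = 0.1 in an exact two-sided permutation test, the smallest that 3 libraries against 3 can give (0.15 after Benjamini-Hochberg adjustment over 9 such tests), and the groups did not overlap.

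CRY1 and CRY2 encode the cryptochromes, the strongest repressors of the loop, and were the most abundant of the 10 genes in control cells per length. CRY1, on chromosome 12 (minus strand), bases 106991364 to 107093549, had 38.1, 43.0 and 41.3 CPM in the control libraries, 92.4, 88.7 and 88.1 with CoCl2, and 47.0, 44.4 and 45.6 with OD. CRY2, on the plus strand of chromosome 11 from 45847118 to 45883248, had 37.6, 38.4 and 36.6 CPM in the control libraries, 133, 122 and 127 with CoCl2, and 48.5, 47.7 and 47.6 with OD. For both genes the CoCl2 libraries were far above the rest, and the OD libraries were just above the control libraries. CRY1 rose 2.20-fold with CoCl2 (log2 fold change 1.13, standard error 0.055, adjusted p = 1.55e-28) and CRY2 3.39-fold (log2 fold change 1.76, standard error 0.053, adjusted p = 1.37e-39). With OD the log2 fold changes were 0.16 for CRY1 (adjusted p = 0.0105) and 0.35 for CRY2 (adjusted p = 1.07e-07), both under the threshold. Between the treatments CRY2 was 2.66-fold higher with CoCl2 (log2 difference 1.41, interval 1.31 to 1.51) and CRY1 1.96-fold higher (log2 difference 0.97, interval 0.87 to 1.08). With library size alone the difference between the treatments was 0.86 for CRY2, which was then not called. Under that scaling CRY1 with CoCl2 was no longer called, at 0.63, while its distance above the median of all genes was 1.18 with either scaling.

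The cryptochromes also differed in their order per length. CRY1 made up 56.8%, 59.2% and 59.4% of their length-scaled sum in the control libraries, 47.4%, 48.6% and 47.3% with CoCl2, and 55.7%, 54.7% and 55.4% with OD. CRY1 was thus above CRY2 in every control and OD library and below it in every CoCl2 library. The mean difference from control was -10.7 percentage points with CoCl2 and -3.22 with OD, each with p = 0.1 by the exact permutation test, the smallest possible. BHLHE41 made up 1.19% to 3.41% of the length-scaled sum of BHLHE40 and BHLHE41 in all 9 libraries, with overlapping groups (exact permutation p of 0.2 to 0.7).

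**Figure D3:**
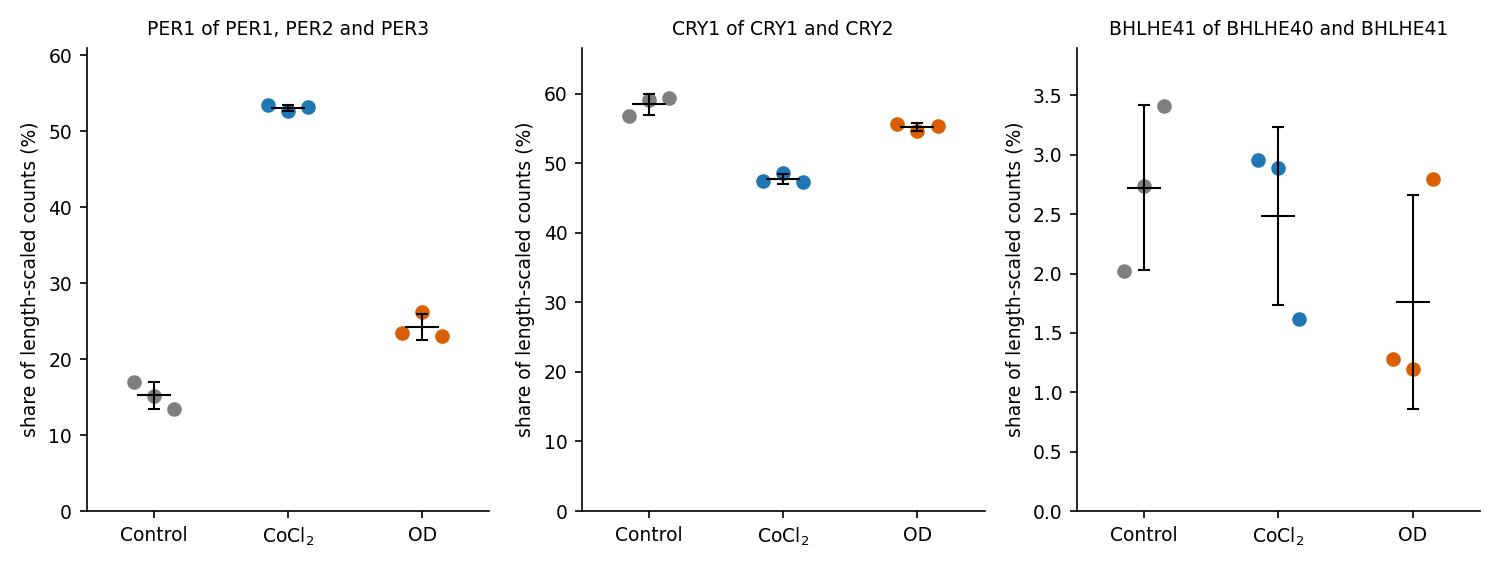
Share of one paralog in the length-scaled counts of its family (vertical axes, percent, starting at 0) in the 9 libraries, with points for libraries and bars for the mean and SD of 3 per condition. The PER1 share was 52.7% to 53.4% with CoCl2 against 13.5% to 17.0% in control cells, and the BHLHE41 share overlapped between all conditions.

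CIART, whose product binds BMAL1 and represses CLOCK and BMAL1, showed the largest log2 fold change of the 10 genes with CoCl2. It lies on the plus strand of chromosome 1, from 150282543 to 150287093. It had 36, 33 and 43 counts in the control libraries, 500, 338 and 525 with CoCl2, and 217, 231 and 187 with OD. The mean CPM (± SD, n = 3) was 1.99 ± 0.400 for control, 28.3 ± 2.55 for CoCl2 and 10.0 ± 0.207 for OD, in 3 ranges without overlap. CIART rose 14.3-fold with CoCl2 (log2 fold change 3.84, standard error 0.12, adjusted p = 6.24e-39) and 5.07-fold with OD (log2 fold change 2.34, standard error 0.14, adjusted p = 1.9e-23). It was 2.82-fold higher with CoCl2 than with OD (log2 difference 1.498, interval 1.33 to 1.67, adjusted p = 4.46e-25), or 0.95 on the log2 scale with library size alone. No exon of another gene overlapped those of CIART or CRY2 in the annotation used.

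NR1D1, the REV-ERBα gene, maps to chromosome 17 (minus strand), bases 40092793 to 40100589. It had 69, 77 and 56 counts in the control libraries, 417, 302 and 435 with CoCl2, and 184, 149 and 131 with OD, so that the 3 conditions were separate. NR1D1 rose 6.75-fold with CoCl2 (log2 fold change 2.75, standard error 0.11, adjusted p = 4.27e-33) and 2.06-fold with OD (log2 fold change 1.04, standard error 0.13, adjusted p = 1.59e-10). The call with OD was close to the fold change threshold and was lost without control replicate 3, at 0.96, and without OD replicate 1, at 0.93. The gene was 3.28-fold higher with CoCl2 than with OD (log2 difference 1.71, interval 1.53 to 1.90). THRA, which shares 18% of the exonic bases of NR1D1 on the opposite strand, had 549 to 618 counts in control cells and 248 to 395 with CoCl2, a log2 fold change of -0.64, opposite in direction to NR1D1.

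DBP, the D-box activator, maps to chromosome 19 (minus strand), bases 48630030 to 48637379, and was not called. It had 72, 68 and 62 counts in the control libraries, 82, 70 and 113 with CoCl2, and 64, 75 and 86 with OD. In CPM the CoCl2 libraries, at 5.10 to 5.93, were above the control libraries, at 3.33 to 3.87, while the OD libraries, at 2.91 to 4.58, spanned the control range. The log2 difference from control was 0.63 for CoCl2 (standard error 0.15, adjusted p = 0.000149) and 0.0021 for OD, with an interval from -0.31 to 0.32. SPHK2, which shares 10.2% of the exonic bases of DBP on the opposite strand, had 866 to 916 counts in control cells, against 62 to 72 for DBP. It had 245 to 351 counts with CoCl2 and 464 to 552 with OD. SPHK2 was lower with CoCl2 (log2 fold change -1.37, adjusted p = 4.92e-28) and with OD (-0.96, adjusted p = 1.06e-21). Whether its reads enter the DBP counts was not tested.

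**Figure D4:**
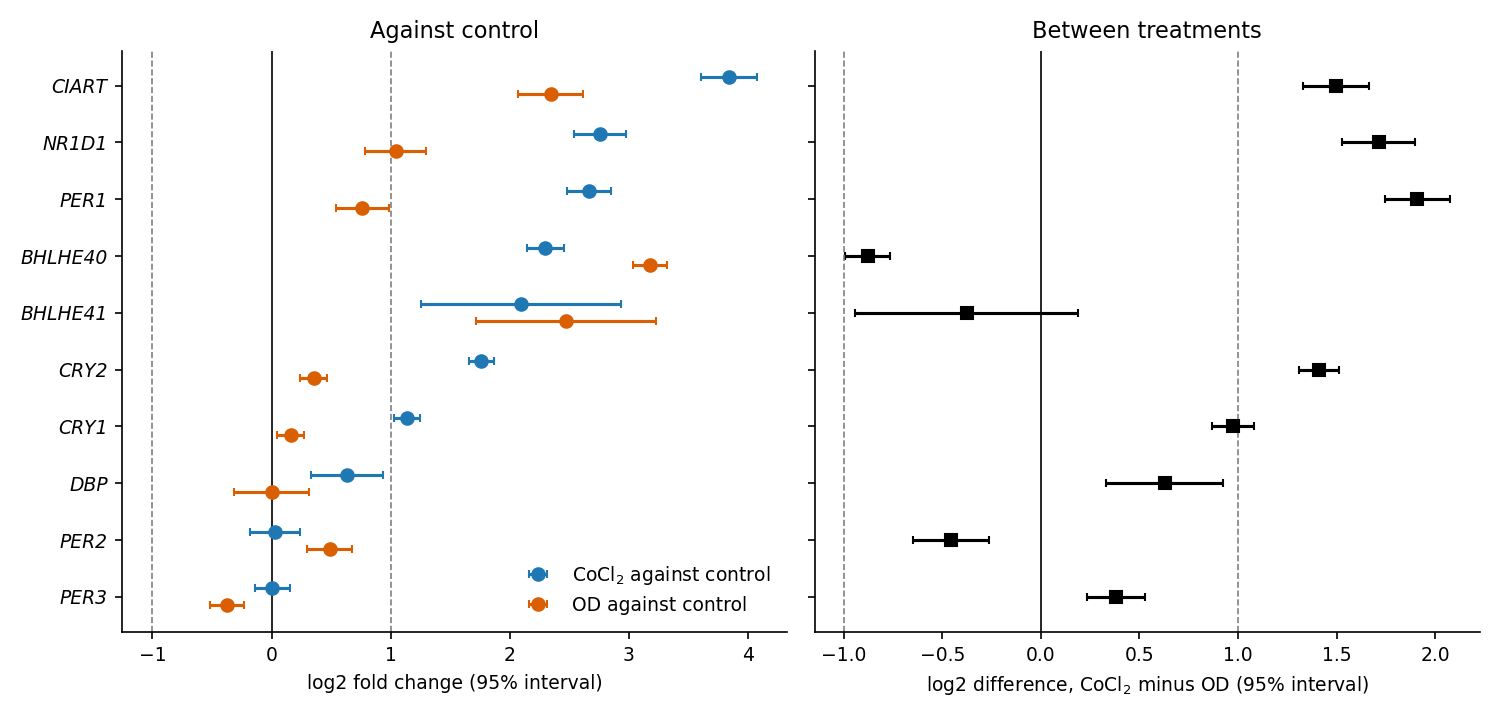
Log2 fold change of the 10 clock genes against control (left, CoCl2 and OD) and log2 difference of CoCl2 minus OD (right), with 95% intervals from edgeR over 9 libraries and dashed lines at -1 and 1. BHLHE40 lies furthest to the right with OD, at 3.18, and CIART with CoCl2, at 3.84, and on the right side PER1, NR1D1, CIART and CRY2 lie above 1 while BHLHE40 lies at -0.88.

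Levels between genes can be compared per length of exon only. In CPM per kilobase of exon, control cells ranged from 8.54 for CRY1, 6.05 for CRY2, 3.07 for PER3 and 2.48 for BHLHE40 through 1.35 for NR1D1, 1.22 for PER2, 0.771 for PER1, 0.698 for CIART and 0.549 for DBP to 0.069 for BHLHE41. In that order the libraries of NR1D1 and PER2, of PER1 and CIART, and of CIART and DBP overlapped. With CoCl2 the highest level was that of CRY2, at 20.5 CPM per kilobase, followed by CRY1 at 18.8, BHLHE40 at 12.1, CIART at 9.92 and NR1D1 at 9.14, of which CIART and NR1D1 overlapped. With OD, BHLHE40 came first at 22.4 CPM per kilobase, ahead of CRY1 at 9.55 and CRY2 at 7.73, without overlap. The length counts all exonic bases of any transcript, and for DBP these were 6485 bases in 2 merged blocks, which lowers its level on this scale.

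Genes whose profile over the 9 libraries was nearest to each of these genes were found by the distance between log2 CPM profiles centred on control. Nearest to BHLHE40 were ALDOC, a glycolytic aldolase (distance 0.30), and PDK1, a kinase that inhibits pyruvate dehydrogenase (0.44). Nearest to BHLHE41 were JAKMIP3 and MXI1, at distances of 1.00 and 1.05. PER1 had CPEB4 and GNRH1 nearest, at 0.35 and 0.36, and CIART had IRS2 and KLHL24, at 0.44 and 0.48. GOLGB1 and PLCXD2 were nearest to NR1D1, at 0.29 and 0.37. CRY1 was nearest to CAMSAP1 and C2CD3, at 0.158 each. PER2 was nearest to COPG1 and NUCB2, PER3 to VDAC1 and CMTM8, and DBP to BCAS2 and DHRS7.

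The rest of the clock was read from a list of 35 other genes, of which 32 were tested. With CoCl2, 12 of the 32 were called higher and 5 lower, against 19.9% and 23.4% of all tested genes. With OD, 5 were called higher and 2 lower, against 9.09% and 4.16%. Their median log2 difference from control was 0.69 for CoCl2 and 0.13 for OD. With library size alone 6 in place of 12 were called higher with CoCl2, where 11.5% of all tested genes were. Between the treatments, 8 were called higher with CoCl2 and 4 lower, against 17.5% and 23.8% of all tested genes, or 2 and 8 with library size alone, against 8.47% and 37.8%. With at least 10 counts required in every library, 10 were called higher and 4 lower with CoCl2, against 16.9% and 20.6% of the genes then tested. With OD these were 4 and 1, against 6.38% and 2.63%.

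Among the E-box activators, BMAL1 (ARNTL) had 13.5 ± 1.02 CPM (SD, n = 3) under control conditions, 21.3 ± 0.408 with CoCl2 and 30.3 ± 0.240 with OD. It rose with OD (log2 fold change 1.17, adjusted p = 3.35e-22) while its value for CoCl2 was 0.67, under the threshold. NPAS2, which can stand in for CLOCK, rose with OD (log2 fold change 1.13, adjusted p = 5.86e-08), had -0.26 for CoCl2, and was called lower in the direct comparison of CoCl2 with OD, at -1.40. ARNTL2, the BMAL1 paralog, fell with CoCl2 (log2 fold change -1.65, adjusted p = 1.41e-28) and had 0.13 with OD. CLOCK was not called, with 0.47 and 0.30.

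Of the receptors that act on BMAL1, RORA, an activator, rose with both treatments (log2 fold changes of 1.73 and 1.24), and NR1D2, the paralog of NR1D1, rose with CoCl2 (1.42) and had 0.13 with OD. RORB had 0 counts in all 9 libraries. NFIL3, the repressor that competes at D-boxes, rose with both, by 1.89 and 1.06. HLF, an activator of the same family as DBP, fell from 185 to 209 counts in control cells to 6 to 10 with CoCl2 and 81 to 123 with OD, with log2 fold changes of -4.36 and -1.12. TEF, the remaining member of that family, was not called, with -0.35 with each treatment.

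Among the kinases and ubiquitin ligase subunits that set the turnover of PER and CRY proteins, CSNK1D, GSK3A and FBXW11 were called higher with CoCl2 (1.19, 1.18 and 1.20). Of all tested genes, 19.9% were. With OD 0 of the 8 tested were called, against 13.3% of all tested genes in either direction. By the adjusted p alone, all 8 were higher with CoCl2, against 40.4% of all tested genes. With OD 4 were then higher and 3 lower, against 32.3% and 33.3%. Of the accessory factors, SIRT1 and RBM4 rose with CoCl2 (1.66 and 1.24), while TIMELESS, its partner TIPIN and WDR5 fell (-1.06, -1.46 and -1.54). TIPIN also fell with OD (-1.15). TIMELESS and TIPIN also serve DNA replication. Of the 8 output genes, NOCT and KLF10 rose with CoCl2 (2.46 and 1.42). KLF9 and TSC22D3 were also called higher with CoCl2 (2.72 and 2.65), and TSC22D3 with OD (2.87), but their control counts were low, at 4 to 8 and 6 to 11, and they were tested because of their levels in treated cells.

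**Figure D5:**
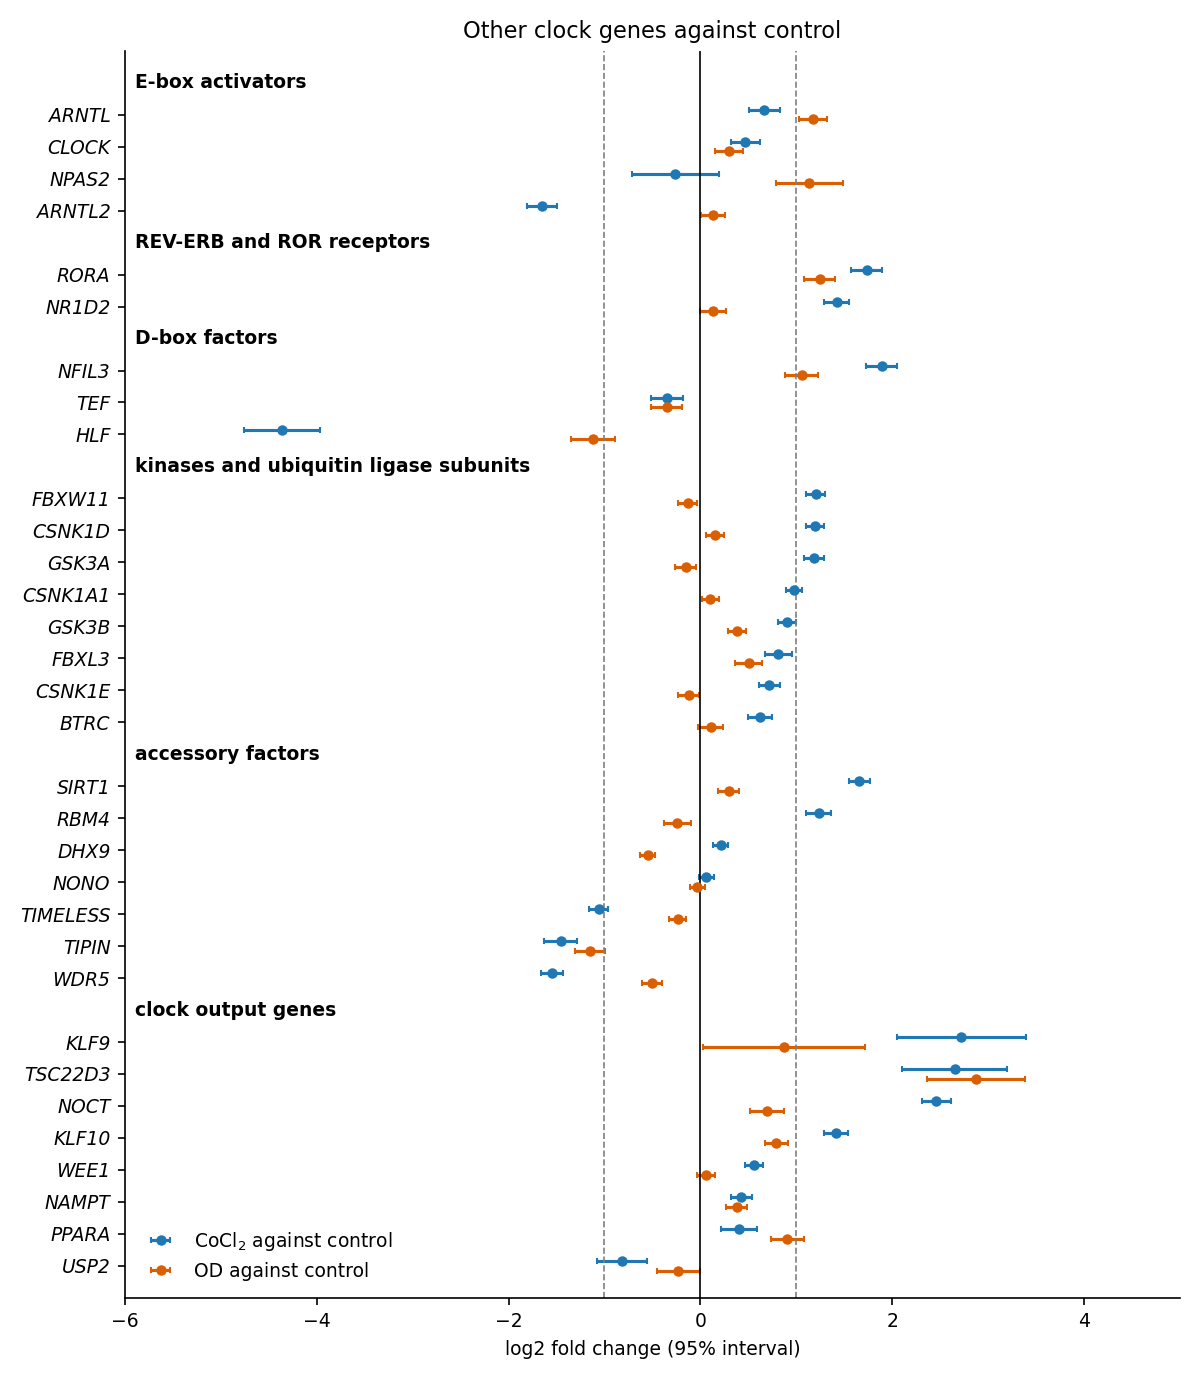
Log2 fold changes against control (horizontal axis, 95% intervals from edgeR) of the 32 tested genes of the wider clock, grouped by role, with CoCl2 and OD as separate points and dashed lines at -1 and 1. HLF lies furthest to the left, at -4.36 with CoCl2, and BMAL1 (ARNTL) and NPAS2 lie further right with OD than with CoCl2.

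BHLHE40 and BHLHE41 belong to a wider family of repressors with HES and HEY proteins, most of which are known as Notch targets. Of the 6 tested, HEY1 and HES2 had low control counts, at 2 to 6 and 7 to 10, and were tested because of their levels in treated cells, so their values are a description. HEY1 had 34 to 55 counts with CoCl2 and 9 to 12 with OD (log2 differences from control of 3.73 and 1.23), and HES2 had 4 to 8 and 46 to 70 (-0.39 and 2.57). HES4 and HEYL fell with CoCl2 (-1.36 and -1.13). HES1 had log2 fold changes of -0.42 and -0.24 and was not called.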

How the data were processed

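mRNA was measured in 9 libraries of uCaco-2 cells, 3 per condition. The authors checked reads with FastQC 0.11.9, removed adapters (cutadapt 2.10) and aligned the reads to GRCh38.p13 (STAR 2.7.5b), per the submitters' processing notes. What was deposited are raw counts per gene symbol, from a stranded kit. The counting tool and its strand setting are not given in the sources used here, so reads of genes that overlap on opposite strands may not have been told apart.

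TMM factors were computed with edgeR 4.0.16 (R 4.3.3), which kept 15944 of 60591 symbols by its expression filter, and fitted a robust quasi-likelihood model with 1 mean per condition over all 9 libraries, with Benjamini-Hochberg adjustment. Standard errors are the fold change divided by the root of the F statistic. Depths of 15998136 to 24209427 counts gave log2 standard errors up to 0.42 for the sparse BHLHE41 and of 0.053 for CRY2 with CoCl2. DESeq2 1.42.0 and the other alternatives are given in the closing section. The fit was tested on simulated data. Exon lengths and positions came from GENCODE release 44 on GRCh38, and promoter sequences from RefSeq (GRCh38.p14). The members and lists were chosen with earlier results of these data known. The genes named are the members, the list genes, genes whose exons overlap those of members, and the 2 tested genes at 1 CPM or more with the nearest profile (log2 CPM with a prior count of 2). Replicates of each condition differed by more than counting error (chi-square over its degrees of freedom 1.82 to 3.32). The edgeR p-values set a difference against the spread between such replicates of 1 cell line. That spread is estimated over all 9 libraries with information shared between genes. The exact permutation p-values estimate no spread and cannot fall under 0.1. Some results of these lists and of the nearest profiles, among them those of CRY2, are not reported here.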

Additional observations from a re-analysis of the deposited data

How the results depend on the processing

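Of 567 values of the log2 fold changes of the 10 genes under the alternatives, 540 kept their direction and their side of the threshold. With the adjusted p alone, the calls among the 10 genes numbered 8 with CoCl2 against control, 9 with OD and 9 between the treatments, and those among the other clock genes numbered 30, 25 and 29 of 32, where 83.2%, 65.6% and 83.5% of all tested genes passed. With glmTreat, which tests against a log2 fold change of 1, 3 other clock genes were called with OD in place of 7. The calls among all 15944 tested genes also fell, to 965 in place of 2113. With the replicate number as a replicate block, 7, 4 and 4 of the 10 genes were called, as without it. All of these calls were higher, against 19.9%, 9.11% and 17.5% of all tested genes. Deviations of libraries with the same number correlated at -0.0049 to 0.038, and those with different numbers at -0.0467 to 0.025. In 10 of 18 pairings of a library with another condition the best match had its own number. The ranges of correlation overlap, so they do not settle whether the numbers pair the libraries. Leaving out each library in turn gave 7 calls with CoCl2 each time, 3 to 4 with OD and 4 between the treatments, and 17, 6 to 8 and 12 among the other clock genes. In these fits 19.8% to 20.5%, 8.98% to 9.65% and 17.3% to 18.2% of all tested genes were called higher. Those called lower were 23.0% to 23.6%, 4.11% to 4.46% and 23.4% to 24.2%. With scaling by library size the log2 fold change was -0.475 for PER2 and -0.499 for PER3 with CoCl2 against control, -0.164 for PER3 between the treatments, and 0.63 for CRY1 with CoCl2, which was no longer called. Between the treatments that scaling ended the calls of CRY2 (0.86) and CIART (0.95) and called BHLHE40 (-1.43) and PER2 (-1.002) lower. Upper-quartile factors gave -0.0692 for PER2 and -0.0927 for PER3 with CoCl2, and called BHLHE40 between the treatments (-1.01), and RLE factors called CRY1 there (1.02). For CoCl2 without a count filter PER2 stood at -0.0334 and PER3 at -0.0577. PER3 was also -0.0214 with at least 10 counts required in every library, -0.00606 on the 6 libraries compared and -0.00432 in DESeq2 on those 6. Leaving out libraries moved PER2 with CoCl2 from -0.0324 to 0.0736, PER3 with CoCl2 from -0.058 to 0.0521, DBP with OD from -0.185 to 0.138, BHLHE41 between the treatments from -0.594 to 0.0534 and the BHLHE41 share with CoCl2 from -0.588 to 0.197 percentage points. NR1D1 with OD was not called by glmTreat. The cause of these changes was not tested beyond the shift of all genes given for the scaling. Among the 10 genes BHLHE41 had the fewest counts, at 4 to 6 in control libraries, and the largest standard errors.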
